A study of Sus scrofa with 6 samples.

Results

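Transcripts of chemokines, interleukins and their receptors were followed in preovulatory follicles of sows of the prolific Chinese Taihu breed and of the Large White breed. The members were all probe sets of the porcine array whose single gene symbol in the array's probe table begins with the name of a chemokine, a chemokine receptor or an interleukin (the prefixes CCL, CXCL, CCR, CXCR and CX3C, or IL followed by a digit). This gave 67 of the 24123 probe sets on the array, and they stand for 58 genes: 12 CC chemokines, 7 CXC chemokines, 8 chemokine receptors, 19 interleukins including the binding protein IL18BP, and 12 interleukin receptors. Each of the 6 arrays held the RNA of 1 sow, 3 Chinese Taihu sows (named Chinese Erhualian in the deposited labels, a strain of the Taihu group) and 3 Large White sows, all multiparous and cycling. All sows received 1000 IU PMSG, which drives follicle growth, and 500 IU hCG 80 h later, which starts ovulation, and they were killed 30 to 38 h after hCG. Healthy follicles over 5 mm in diameter were dissected and frozen whole, so that the RNA of granulosa, theca, vessel and blood cells was mixed. Each breed came from its own farm, and breed and farm cannot be told apart. No untreated sow was among the samples, so the effect of the hormones was not measured. The sows are numbered as the labels number them.

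Chemokines are small secreted proteins that bind to seven-helix receptors and draw leukocytes along a gradient. CC chemokines mostly attract monocytes, lymphocytes and eosinophils, CXC chemokines such as CXCL8 and CXCL2 attract neutrophils, and CXCL12 holds and guides cells that carry CXCR4. Interleukins act through receptors of several chains, many of which pass their signal through JAK kinases and STAT factors, while the IL1 and IL18 receptors use MYD88 and NF-kB. Ovulation is known as an inflammation-like process in which the LH surge brings leukocytes into the theca and in which cytokines act on matrix, vessels and cumulus cells.

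The unit of every level is the normalized signal of a probe set, on a linear scale and brought to a common level on all arrays, so signals are compared between sows for the same probe set and not between genes. A probe set was tested when its signal was above 50 on at least 3 of the 6 arrays. This held for 51 member probe sets of 45 genes (76.1% of the 67), against 80.2% of the 23935 probe sets that are not controls. Probe sets outside this limit are called at background. Just inside it were IL21, IL12A and IL6R, whose 3 brightest sows had at least 52.6, 53.4 and 53.7, and just outside it were IL13 and IL18R1, with at least 48.1 and 47.8. Of the tested probe sets 44 were above 50 in every sow, 11 stayed under 100 in every sow, and 16 were above 200 in every sow.

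Markers of other cells differed between single sows. The list for surface epithelium and mesothelium had 7 tested markers, among them general epithelial markers such as EPCAM and KRT19. The summed signal of the 7 was 30650 in Chinese Taihu sow 1, 1602 and 2219 in Chinese Taihu sows 2 and 3, and 1464 to 5545 in Large White sows. All 7 were highest in Chinese Taihu sow 1. The oviduct markers OVGP1 and TEKT1 summed to 12735 in this sow, with 2576 in Large White sow 3 as the next. The kind of epithelium in Chinese Taihu sow 1 was not tested. The 6 theca markers summed to 335 in that sow, 42532 and 6548 in Chinese Taihu sows 2 and 3, and 10084 to 36426 in Large White sows, so the labelled tissue was hardly seen by its theca markers in Chinese Taihu sow 1. The 13 myeloid markers summed to 9708 to 17057 in Chinese Taihu sows and to 8530, 35039.5 and 12091 in Large White sows 1 to 3, and 11 of them were highest in Large White sow 2. The 10 endothelial markers lay close together, at 5871 to 6426 in Chinese Taihu and 5493 to 6597 in Large White sows. Of the markers of all cell types, 0 had an unadjusted limma p at or below 0.05 between the breeds, where 3.86% of all tested probe sets did. In such mixed samples a smaller number of cells of a type and less RNA per cell cannot be told apart.

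Between the breeds, CXCL14, CXCL12, CCL2 and IL2RG had the most negative log2 differences (Chinese Taihu minus Large White), and CCL24, CXCR6 and CXCL2 the most positive. None of the 51 probe sets passed the limma test. In it, 0 of the 51 had an unadjusted p at or below 0.05, where 3.86% of all 19196 tested probe sets did (1.56% with Chinese Taihu higher, 2.30% with Chinese Taihu lower), and 0 had an adjusted p below 0.05, where 0.0208% of all did. The smallest adjusted p of a member was 0.993. The methods' t-test put 1 of the 51, IL17B, at an unadjusted p of at most 0.05, where it put 4.41% of all tested probe sets. The median log2 difference of the members was -0.06, against 0.00 over all tested probe sets, and 23 of the 51 were positive (45.1%, against 50.3% of all). With single sows left out, the count moved most without Chinese Taihu sow 2: then 8 members reached an unadjusted p at or below 0.05, 3 higher (CCL24, IL6 and IL13RA1) and 5 lower (CCL21, both CXCL12 probe sets, CXCR4 and IL27RA) in the other Chinese Taihu sows, where 6.38% of all probe sets did, and the adjusted p of each was 0.708. Without Large White sow 1 it was 3 members (CCL4 and both CXCL14 probe sets, all lower), where 3.52% of all probe sets were at this p, and without Large White sow 3 it was IL27RA alone, where 4.78% of all were. Without any of the other 3 sows it was 0.

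**Figure D1:**
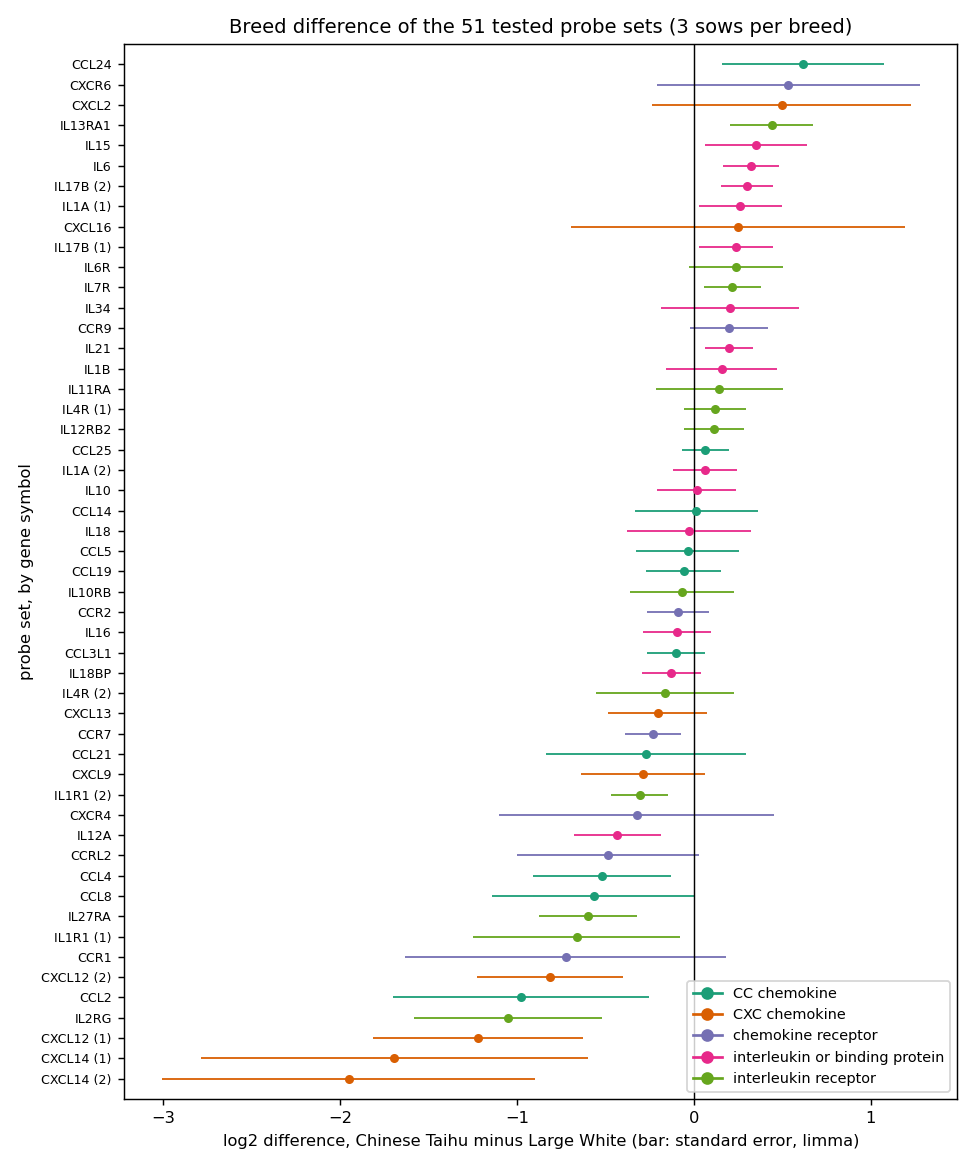
Breed difference of the 51 tested members. Plotted along x is the difference in log2 signal, Chinese Taihu minus Large White (3 sows per breed), each point 1 probe set with its standard error from limma, and the colour the kind of member. Where a gene has several probe sets, (1) and (2) tell them apart. The differences run from -1.95 (CXCL14) to 0.62 (CCL24), and the bars are widest for CXCL14, CXCL16 and CCR1.

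CXCL12, which retains and attracts cells that bear CXCR4, was measured by 2 probe sets. The dimmer one, probe set (1), gave 276, 1511 and 509 in Chinese Taihu sows 1 to 3 and 1451, 1514 and 1224 in Large White sows 1 to 3. Probe set (2) gave 544, 1650.2 and 1132 in the Chinese Taihu sows and 1662, 2061 and 1615 in the Large White sows. On both probe sets Chinese Taihu sows 1 and 3 lay below every Large White sow, while Chinese Taihu sow 2 lay within the Large White range. The log2 difference was -1.22 (SE 0.59, adjusted p = 0.993 by limma) for the first probe set and -0.81 (SE 0.41, adjusted p = 0.993) for the second. Without Chinese Taihu sow 2 these values were -1.89 and -1.17, and without Chinese Taihu sow 1 they were -0.66 and -0.37.

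CXCR4, the receptor of CXCL12, gave 784, 5457 and 891 in the Chinese Taihu sows and 2896, 1987 and 1295 in the Large White sows. Chinese Taihu sow 2 was the highest of all 6 and the other Chinese Taihu sows the lowest, so the breeds overlapped, and both CXCR4 and the CXCL12 probe sets had their lowest 2 signals in Chinese Taihu sows 1 and 3. Of the 51 members, 7 probe sets had their lowest 2 signals in these sows (13.7%, against 11.01% of all tested), the others being CCL21, CXCL13, IL12A and IL27RA. The log2 difference of CXCR4 was -0.32 (SE 0.78). It was -1.22 without Chinese Taihu sow 2 and 0.17 without Chinese Taihu sow 1. The summed theca markers were, as CXCR4 was, highest in Chinese Taihu sow 2 (42532) and next in Large White sow 1 (36426). Of the list, HSD3B1, CYP11A1, STAR and CYP17A1 had this order. INSL3 and LHCGR were highest in Chinese Taihu sow 2 as well. In Large White sow 1 they had 1121 and 79.9, under Large White sows 2 (1275 and 181) and 3 (1725 and 129). In Chinese Taihu sow 2 and Large White sow 1 the brightest of the list were HSD3B1, CYP11A1 and STAR. Whether granulosa cells added to these was not tested. Of all tested probe sets, 15.6% had their highest 2 signals in Chinese Taihu sow 2 and Large White sow 1. The part of the theca markers in the CXCR4 signal was not tested.

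CXCL14, a chemokine of epithelia and stroma that attracts monocytes and dendritic cells, had the widest range of all members. Of its probe sets the brighter one, (2), gave 759.8, 337 and 1493 in Chinese Taihu sows 1 to 3 and 649, 10455 and 3248 in Large White sows 1 to 3. Probe set (1) gave 798, 198 and 979 in the Chinese Taihu sows and 393, 6201 and 2137 in the Large White sows. Both probe sets put the sows in the same order, with Large White sow 2 highest, Large White sow 3 next and Chinese Taihu sow 2 lowest. The ratio of the highest to the lowest signal was 31.0 and 31.4. Large White sow 1 lay among the Chinese Taihu sows, and the breeds overlapped. The log2 differences were -1.95 (SE 1.05) and -1.69 (SE 1.09). They were -1.0004 and -0.77 without Large White sow 2, and -3.01 and -2.76 without Large White sow 1.

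**Figure D2:**
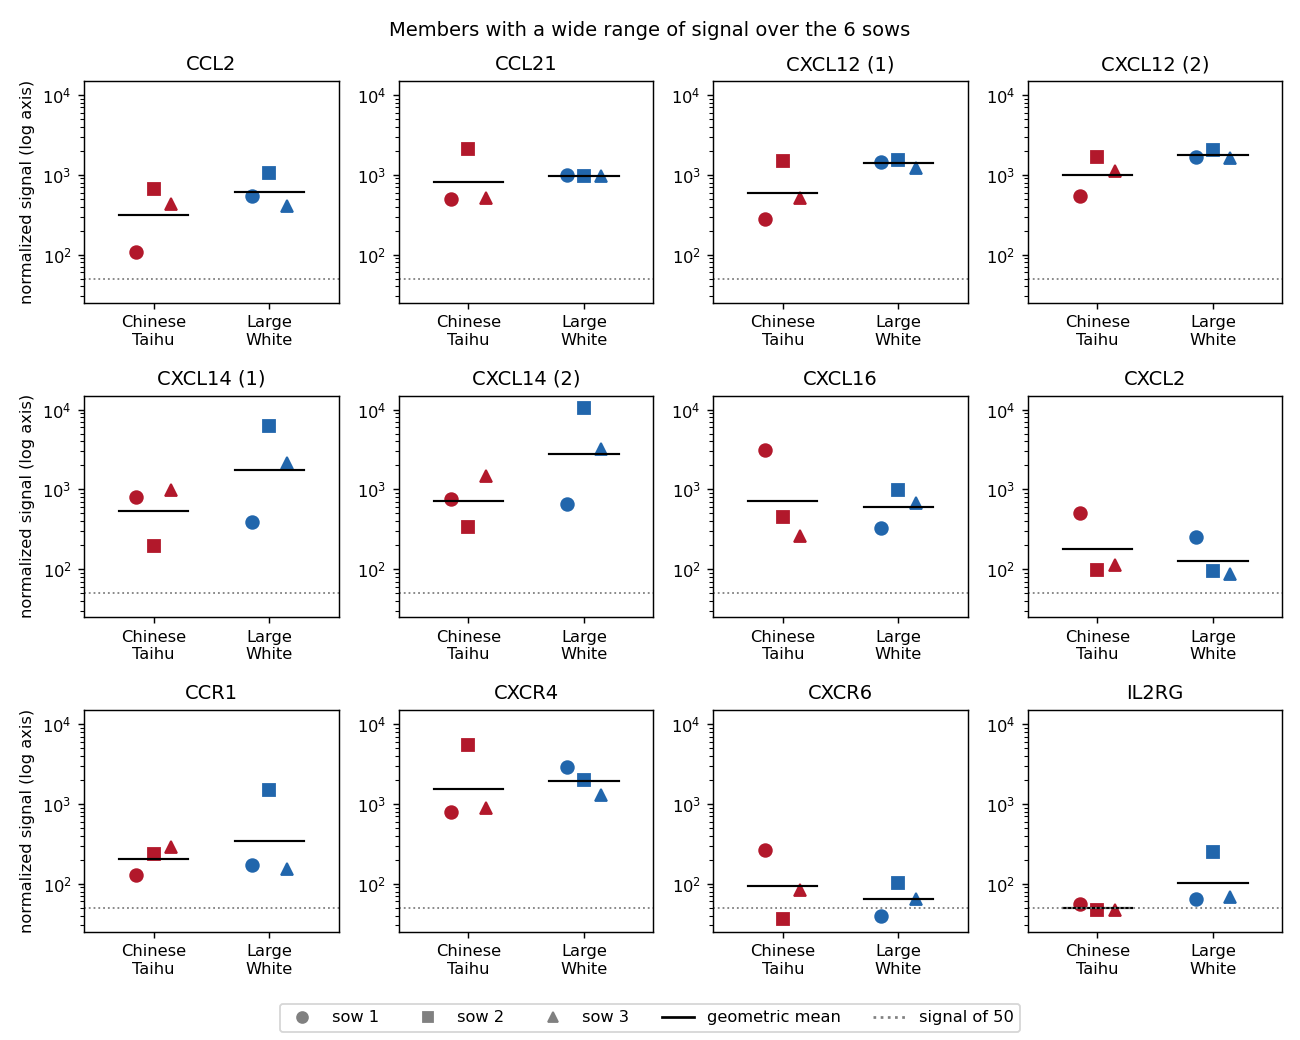
Normalized signal of 12 probe sets with a wide range over the sows, on a logarithmic scale. A point stands for 1 sow (circle, square and triangle for sows 1, 2 and 3), the left column of each panel the Chinese Taihu and the right the Large White sows, and the short line the geometric mean of a breed. For CXCL12 and CXCL14, (1) is the dimmer and (2) the brighter probe set, and the dotted line is the limit of 50. CXCL14, CCR1 and IL2RG are highest in Large White sow 2, CXCL16, CXCL2 and CXCR6 in Chinese Taihu sow 1, and CXCR4 and CCL21 in Chinese Taihu sow 2.

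Among the chemokines that attract monocytes, CCL2 gave 107, 660.1 and 436 in the Chinese Taihu sows and 542, 1068 and 408 in the Large White sows. Chinese Taihu sow 1 was far below and Large White sow 2 above the rest, and the log2 difference was -0.98 (SE 0.73). It was -0.20 without Chinese Taihu sow 1, -0.58 without Large White sow 2 and -1.51 without Chinese Taihu sow 2. CCL8, which lies 1 coding gene from it and is a ligand of the same receptor CCR2, had 43.0, 132 and 90.7 in the Chinese Taihu sows and 58.3, 191 and 149.9 in the Large White sows. Its lowest and highest signals came from the same sows as those of CCL2. CCL4, an attractant of monocytes and T cells, had 126, 166 and 168 in the Chinese Taihu sows against 134, 382 and 200.4 in the Large White sows, again with Large White sow 2 highest. CCL3L1, which lies next to CCL4 and attracts the same cells, was flat at 152 to 184 in Chinese Taihu and 162 to 197 in Large White sows. Its sequence is close to that of other CC chemokines, and its probes may not tell them apart. CCL5, made by T and NK cells among others, had 478, 320.0 and 263 in the Chinese Taihu sows and 303, 452 and 316 in the Large White sows, with Chinese Taihu sow 1 and Large White sow 2 on top.

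CCR1, the receptor of CCL5 and CCL3 on monocytes and neutrophils, gave 128, 235 and 292 in the Chinese Taihu sows and 174, 1504 and 151 in the Large White sows. Large White sow 2 stood at 5.15 times the next sow. The log2 difference was -0.72 (SE 0.91), and 0.35 without Large White sow 2. CCRL2, a receptor that binds chemerin and does not signal as chemokine receptors do, had 122, 109.6 and 102 in the Chinese Taihu sows against 91.9, 365 and 112 in the Large White sows. It too was highest in Large White sow 2 only. CCR2, the main receptor of CCL2, lay at 101 to 121 in Chinese Taihu and 104 to 138 in Large White sows. In the RefSeq gene table (Sscrofa11.1), CCR1, CCR3 and CCR2 follow one another directly and CCRL2 comes 1 coding gene later. Of these, CCR1 and CCRL2 were high in Large White sow 2, while CCR2 (106 there) and CCR3 (44.6) were not. IL2RG, the gamma chain shared by the receptors of IL2, IL4, IL7, IL15 and IL21, had 56.4, 47.2 and 46.7 in the Chinese Taihu sows and 64.5, 253 and 67.5 in the Large White sows. The breeds did not overlap, but 2 of the Chinese Taihu sows were under 50. The log2 difference was -1.05 (SE 0.53), and -0.40 without Large White sow 2.

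In Large White sow 2, 5 of the 51 member probe sets (9.80%) stood at 2 or more times the next sow, namely both of CXCL14, CCR1, CCRL2 and IL2RG, against 1.07% of all tested probe sets. Both highest signals were in Large White sows 2 and 3 for 7 members (13.7%, against 5.79% of all tested), CCL4, CCL8, both of CXCL14, IL16, IL1R1 and IL2RG. Large White sow 2 had the highest sum of myeloid markers (35039.5, with 17057 in the next sow, Chinese Taihu sow 3). The 5 tested neutrophil markers summed to 302 to 356 in Chinese Taihu sows and to 466, 988 and 298 in Large White sows 1 to 3. Of these 5, S100A12 and S100A9 were highest in Large White sow 2, S100A8 and MMP9 in Large White sow 1 and ELANE in Chinese Taihu sow 1. The lymphocyte markers, 13 tested, had a summed signal of 1394 to 2263 in Chinese Taihu sows and 1514 to 1663 in Large White sows. Of these markers 0 were highest in Large White sow 2. CD8A, CD2, CD3E, LCK, KLRK1 and CD3G were second there, after Chinese Taihu sow 1, and the other lymphocyte markers were not among its highest. What part the myeloid cells had in the member signals was not tested.

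CXCL16, a chemokine that is made as a membrane protein and binds CXCR6, gave 3090.05, 457 and 261 in the Chinese Taihu sows and 329, 982 and 678 in the Large White sows. Its receptor CXCR6, found on T and NK cells, had 266, 36.1 and 84.2 in the Chinese Taihu sows and 39.5, 103 and 65.4 in the Large White sows. Both the ligand and the receptor were highest in Chinese Taihu sow 1 and next in Large White sow 2. These sows held the highest 2 signals of 6 members (11.8%, against 6.12% of all tested), with CCL5, CXCL9, CCRL2 and IL12RB2 as the others. CXCL2, a neutrophil attractant, had 512, 97.8 and 114 in the Chinese Taihu sows and 251, 93.8 and 86.3 in the Large White sows. Its probes may share sequence with other CXC chemokines of the same cluster. The log2 differences were 0.25 (SE 0.94) for CXCL16, 0.53 (SE 0.74) for CXCR6 and 0.50 (SE 0.73) for CXCL2, and without Chinese Taihu sow 1 they were -0.80, -0.22 and -0.26. These 3 genes were the members at 2 or more times the next sow in Chinese Taihu sow 1 (5.88% of the 51, against 3.90% of all tested probe sets).

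CCL28, a chemokine of mucosal epithelia, did not enter the test, since it was above 50 on 1 array only. It had 339, 46.2 and 41.2 in the Chinese Taihu sows and 33.6, 36.7 and 38.1 in the Large White sows, so that Chinese Taihu sow 1 was alone above the limit. The markers EPCAM and KRT19 of epithelial cells had 7761 and 4041 in that sow, with 1653 and 497 as the highest signals of any other, and 9 of the 13 lymphocyte markers, CD8A and CD247 among them, were highest there too. Their part in the signals of CXCL16, CXCR6, CXCL2 and CCL28 was not tested.

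CCL21 and CCL19, both ligands of CCR7 that lead dendritic cells and lymphocytes into lymph vessels and nodes, behaved differently although they lie next to each other. CCL21 gave 492, 2087 and 517 in the Chinese Taihu sows and 1009, 962 and 959 in the Large White sows, so the 3 Large White sows were alike and lay between the Chinese Taihu sows. The log2 difference was -0.27 (SE 0.57), and -0.95 without Chinese Taihu sow 2. CCL19 ran from 230.3 to 317 in Chinese Taihu and from 236 to 325 in Large White sows, and CCR7 was low, at 50.6 to 62.9 in Chinese Taihu and 58.1 to 71.9 in Large White sows. CCL24, an eosinophil attractant, had 685, 267 and 694 in the Chinese Taihu sows and 281, 256 and 489 in the Large White sows. Chinese Taihu sow 2 lay with the low Large White sows, and the log2 difference of 0.62 (SE 0.46) was 1.07 without it, and 0.39 without Chinese Taihu sow 1 or sow 3. Its receptor CCR3 was at background.

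The other tested chemokines and receptors gave 43.5 to 168 over all sows. CXCL9, which interferon gamma induces and which attracts T cells, had 95.1, 79.0 and 43.5 in the Chinese Taihu sows and 64.5, 113 and 80.9 in the Large White sows. CXCL13, the B cell attractant, ran from 63.2 to 132 in Chinese Taihu and 98.0 to 116 in Large White sows on its tested probe set. CCL14, a monocyte attractant, was at 76.2 to 168 in Chinese Taihu and 103 to 158 in Large White sows. CCL25, which guides T cells to thymus and gut, was at 53.2 to 60.0 in Chinese Taihu and 50.9 to 56.2 in Large White sows, and its receptor CCR9 at 71.6 to 89.2 in Chinese Taihu and 61.3 to 94.8 in Large White sows. All of these ranges overlapped between the breeds.

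**Figure D3:**
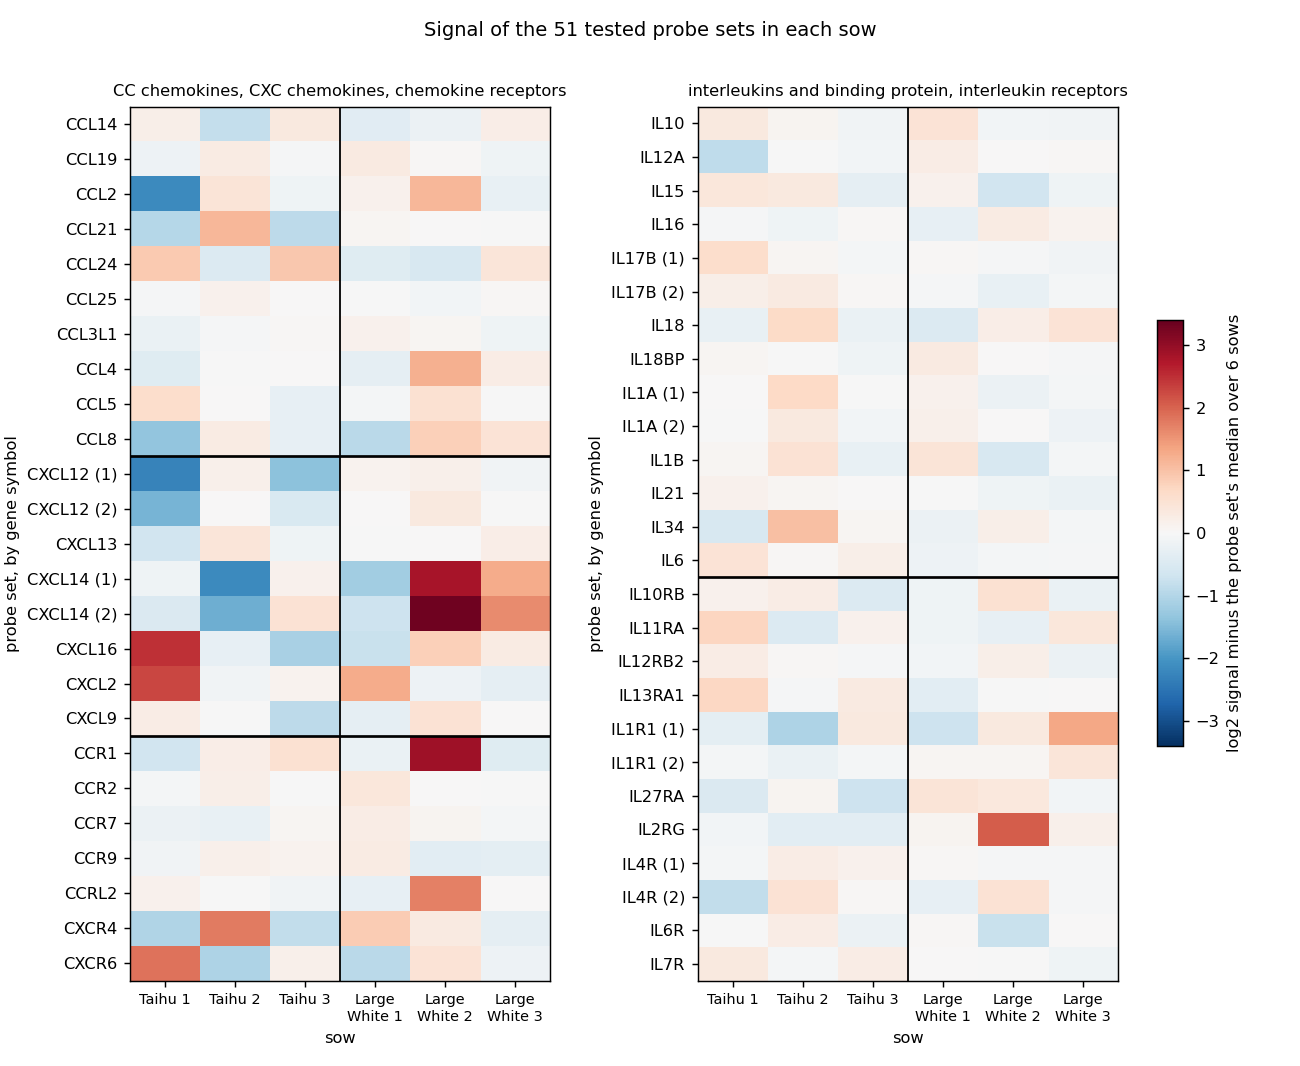
Signal of the 51 tested member probe sets in each sow. Columns are sows, Chinese Taihu 1 to 3 left of the line and Large White 1 to 3 right of it, rows are probe sets by gene, and the colour is the log2 signal minus the median of that probe set over the 6 sows. The chemokines and their receptors on the left show single dark fields (CXCL14 and CCR1 in Large White sow 2, CXCL16 and CXCL2 in Chinese Taihu sow 1), while the interleukins at the upper right are pale, with ratios of highest to lowest signal under 4 for all 14.

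Of the interleukins, 12 of 19 genes were tested. Of their 14 probe sets 5 (35.7%) had a ratio of the highest to the lowest sow of at least 2, against 38.1% of all tested probe sets. IL1A and IL1B, the first signals of inflammation, had their highest 2 signals in Chinese Taihu sow 2 and Large White sow 1. IL1B had 174, 233 and 138 in the Chinese Taihu sows and 225, 114 and 157 in the Large White sows. The brighter IL1A probe set had 139, 221 and 136 in the Chinese Taihu sows and 151, 121 and 132 in the Large White sows. The breeds overlapped on both probe sets, with log2 differences of 0.16 (SE 0.31) and 0.26 (SE 0.24). The receptor IL1R1 had 474, 286 and 754 in the Chinese Taihu sows and 365, 749 and 1481 in the Large White sows on its brighter probe set (1), with its lowest 2 signals in Chinese Taihu sow 2 and Large White sow 1. On probe set (2) the range was 103 to 116 in Chinese Taihu and 127 to 160.2 in Large White sows, without overlap. The log2 differences were -0.66 (SE 0.59) and -0.30 (SE 0.16). Without Large White sow 3 they were -0.16 and -0.19, and the first was -1.17 without Large White sow 1.

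Chinese Taihu sow 2 and Large White sow 1 together held the highest 2 signals of 9 member probe sets (17.6%): CCL19, CCL21, CCR2, CCR9, CXCR4, both of IL1A, IL1B and IL6R. They held the lowest 2 of 7 (13.7%), among them both of CXCL14, IL1R1 and IL13RA1. Over all tested probe sets the shares were 15.6% and 14.6%, so the members were near the background in this.

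IL6, which granulosa and cumulus cells make around ovulation in other species, was close to the limit of 50, at 78.0, 58.8 and 65.2 in the Chinese Taihu sows and 50.7, 54.6 and 55.1 in the Large White sows. The lowest Chinese Taihu sow lay above the highest Large White sow (2-sided exact permutation test, p = 0.1, the smallest that 3 sows against 3 allow), and the log2 difference was 0.32 (SE 0.16, adjusted p = 0.993 by limma), and 0.21 without Chinese Taihu sow 1. IL6R, its binding receptor chain, was at 45.7 to 63.0 in Chinese Taihu and 31.1 to 54.8 in Large White sows. IL11RA, the binding chain for IL11, had 1274, 548 and 840.3 in the Chinese Taihu sows and 694, 624 and 1002 in the Large White sows. The order of its sows crossed the breeds, with Chinese Taihu sow 1 highest and Chinese Taihu sow 2 lowest. IL27RA, the receptor of IL27, had 244, 364 and 209 in the Chinese Taihu sows and 465, 434 and 318 in the Large White sows. It had the smallest unadjusted limma p of all members, with a log2 difference of -0.60 (SE 0.28, adjusted p = 0.993), and 1 Chinese Taihu sow lay above the lowest Large White sow.

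Among the cytokines that use the shared gamma chain and their partners, IL15, which keeps NK cells alive, had 392, 373 and 244 in the Chinese Taihu sows and 328, 192 and 272 in the Large White sows. IL21, made by helper T cells, lay at 52.6 to 57.9 in Chinese Taihu and 44.4 to 52.1 in Large White sows, without overlap but across the limit of 50. IL7R was at 54.6 to 72.1 in Chinese Taihu and 52.1 to 57.6 in Large White sows. IL4R, the chain that binds IL4, gave on its brighter probe set (2) 550.4, 1372 and 999.8 in the Chinese Taihu sows and 800.1, 1385 and 954 in the Large White sows. On the other IL4R probe set the signal stayed within 400.0 to 499.6 in Chinese Taihu and 407 to 431 in Large White sows. The probe sets differed in spread and the breeds overlapped on both. IL13RA1, which pairs with IL4R, had 196, 117 and 147 in the Chinese Taihu sows and 93.9, 119 and 121 in the Large White sows (log2 0.44, SE 0.23), with a narrow overlap. The difference was 0.25 without Chinese Taihu sow 1.

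IL17B, a member of the IL17 family, had 86.6, 92.7 and 77.5 in the Chinese Taihu sows and 73.5, 63.2 and 71.6 in the Large White sows on its dimmer tested probe set (2). The breeds did not overlap there, and the log2 difference was 0.30 (SE 0.15, adjusted p = 0.993 by limma). Its brighter probe set had 267, 188 and 170.1 in the Chinese Taihu sows and 182, 174 and 164 in the Large White sows and did overlap (log2 0.24, SE 0.21), and a further probe set was above 50 in Chinese Taihu sow 1 only. IL12A, a chain of the cytokine IL12, had 29.1, 51.9 and 48.9 in the Chinese Taihu sows and 62.2, 53.4 and 54.5 in the Large White sows, again without overlap and again around the limit of 50. The log2 difference was -0.43 (SE 0.25), and -0.17 without Chinese Taihu sow 1.

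IL18, stored as a precursor and released by caspase 1, ran from 255 to 471 in Chinese Taihu and from 221 to 418 in Large White sows. IL18BP, which neutralizes it, ran from 137 to 159 in Chinese Taihu and from 146 to 188 in Large White sows, and the receptor chain IL18R1 was at background in both breeds. IL10, which restrains inflammation, was at 99.8 to 137 in Chinese Taihu and 99.8 to 149 in Large White sows, and IL10RB, a chain of its receptor, at 211 to 342 in Chinese Taihu and 248 to 416 in Large White sows. IL16, an attractant of CD4+ cells, was at 163 to 186 in Chinese Taihu and 149.9 to 219 in Large White sows. IL34, a second ligand of the macrophage receptor CSF1R, had 83.7, 245 and 127 in the Chinese Taihu sows and 106, 139 and 116 in the Large White sows, and Chinese Taihu sow 2 was the single high sow. IL12RB2, a chain of the IL12 receptor, was at 64.0 to 77.8 in Chinese Taihu and 56.8 to 75.7 in Large White sows.

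At background were 16 member probe sets, and for 13 genes no probe set was tested: CCL27, CCL28, CXCL8, CCR3, IL2, IL2RA, IL4, IL5, IL7, IL12B, IL13, IL17A and IL18R1. CXCL8, the neutrophil attractant known as IL8, had 16.8, 12.8 and 16.8 in the Chinese Taihu sows and 15.1, 15.7 and 17.4 in the Large White sows. No sow of either breed came near the limit of 50. The helper T cell cytokines were likewise low, IL4 at 37.9 to 42.7 in Chinese Taihu and 30.4 to 33.1 in Large White sows, IL5 at 35.5 to 39.7 in Chinese Taihu and 34.3 to 39.3 in Large White sows, and IL17A at 10.2 to 13.6 in Chinese Taihu and 12.3 to 17.0 in Large White sows. A low signal sets a limit to what this probe set detects and does not show that the transcript was absent. Of the 16, 10 were under 50 in every sow and 6 exceeded it in 1 sow (CCL28, CCR3, IL13, IL1B, IL17B and IL2RA). The second CXCL13 and IL1B probe sets were at background while other probe sets of these genes were tested.

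The ratio of the highest to the lowest signal over the 6 sows had a median of 5.70 for the 8 tested CXC chemokine probe sets, 3.97 for the 7 of chemokine receptors, 2.46 for the 10 of CC chemokines, 2.05 for the 12 of interleukin receptors and 1.58 for the 14 of interleukins. It was 2.09 for all 51 and 1.75 for all 19196 tested probe sets. The kinds also differed in signal, with a median of the mean signal of 1024 for CXC chemokines, 112 for chemokine receptors, 234 for CC chemokines, 216 for interleukin receptors and 143 for interleukins, against 286 for all. Ratios near the limit of 50 are not comparable with those of bright probe sets, and the part of the signal level in this order was not tested. A ratio of at least 4 was found for 13 members (25.5%), against 10.9% of all. CXCL12 and CXCL14 enter the CXC median with 2 probe sets each. Among the 13 are both CXCL14 probe sets and the dimmer one of CXCL12 (ratio 5.48), but not its brighter one (3.79). The highest signal of a member came most often from Large White sow 2 (14 probe sets, 27.5%, against 14.7% of all), and rarely from Chinese Taihu sow 3 (2 probe sets, 3.92%, against 16.1%) or Large White sow 3 (2 probe sets, 3.92%, against 10.7%). Chinese Taihu sow 1 held the highest signal of 12 members (23.5%, as of all) and the lowest of 16 (31.4%, against 23.1%).

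**Figure D4:**
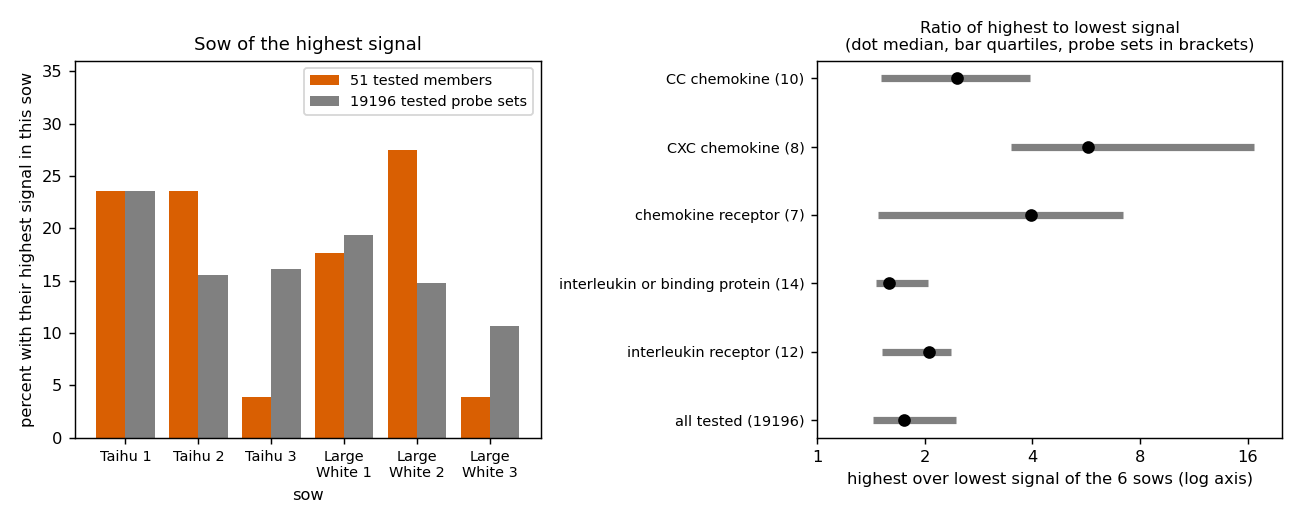
The sow of the highest signal and the spread of each kind of member. Left, the bars give the percent of the 51 tested members and of the 19196 tested probe sets that had their highest signal in each sow, with the Chinese Taihu sows first. Right, the ratio of the highest to the lowest signal of the 6 sows on a log axis, with the median as a dot and the quartiles as a bar. Large White sow 2 holds 27.5% of the members' highest signals, against 14.7% of all, and the CXC chemokines have the median of 5.70, against 1.75 of all.

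Signals of the breeds lay fully apart for 6 of the 51 probe sets (11.8%), against 9.10% of all tested. In 3 of them the Chinese Taihu sows were higher (IL6, IL17B and IL21, against 3.98% of all) and in 3 lower (IL2RG, IL1R1 and IL12A, against 5.12%). For IL17B and IL1R1 this was probe set (2), and their brighter probe sets overlapped. IL21, IL12A and IL2RG had sows on both sides of the limit of 50, and IL6 lay close above it. The share of members was near that of all probe sets.

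Of 27 tested genes of cytokine and chemokine signalling, among them JAK kinases, STAT factors and the NF-kB pathway, 0 were higher and 1 was lower in Chinese Taihu sows at an unadjusted limma p of at most 0.05, against 1.56% higher and 2.30% lower among all tested probe sets, so the count was near the background. The median log2 difference was -0.16. The 1 was TOLLIP, an adaptor that restrains IL1 and Toll-like receptor signals, with 908, 1036 and 996 in the Chinese Taihu sows and 1595, 1757 and 1430.2 in the Large White sows. The breeds did not overlap (log2 -0.70, SE 0.18), but the adjusted p was 0.993. Of 20 tested genes of other cytokines and their receptors, 0 were higher and 1 was lower at this p, again near the 1.56% and 2.30% of all, with a median of 0.05. This was KIT, the receptor of stem cell factor, at 376, 341 and 580.1 in the Chinese Taihu sows and 1541, 1303 and 2235 in the Large White sows (log2 -1.97, SE 0.31, adjusted p = 0.479). IFNG, which induces CXCL9, was at background in every sow. Chemokine genes whose symbols lack the prefixes of the members were in this list and not among the members. AMCF-II was bright, at 1777 to 3812 in Chinese Taihu and 1371 to 3097 in Large White sows (log2 0.27, SE 0.40). The receptor XCR1 was at 230 to 250 in Chinese Taihu and 211 to 341 in Large White sows, and PPBP was at background.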

How the data were processed

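The authors scaled the scanned signals of the porcine GeneChip to a target of 500 with MAS5 (version 2.3.1 per the submitters' processing notes) and normalized the arrays with the invariant set method of dChip. The deposited values are linear signal intensities, 1 per probe set and array, and replicates were not pooled. After removal of the 188 controls a floor of 1 was set, and log2 signals of probe sets above 50 on at least 3 arrays were tested for breed with limma 3.58.1 in R 4.3.3 (variance trend, 2-sided, Benjamini-Hochberg adjustment over 19196 probe sets). Exact permutation tests used scipy 1.17.1 in Python 3.11.15. The number of arrays limits the precision.

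Symbols came from the array's probe table, and all 58 genes matched RefSeq (Sscrofa11.1) with 0 changed symbols. The 2 probe sets that carry IL3RA beside another gene were left out. Sequences were not used here. Probe sets of a gene are numbered (1) and (2). Members, marker lists and pathway lists were chosen with earlier results of these data known. Signals in every sow are given for the 10 genes of highest signal, the 10 probe sets of smallest p, the 10 of widest range, genes whose probe sets oppose each other by at least 0.5 (0 genes) and pathway genes at an unadjusted p of at most 0.05, and other members so shown were chosen after their values were seen. The 8 marker lists cover myeloid cells, neutrophils, lymphocytes, endothelium, granulosa, theca, surface epithelium and oviduct. For a gene with several probe sets the brightest stood in these lists. The procedure was tested on simulated data. Alternatives were weights for each array, other normalizations, filters on low signals, an offset, a prior variance held constant, a replicate block, the methods' t-test, each sow left out, 1 probe set a gene and, after seeing the data, the joint removal of Chinese Taihu sow 1 and Large White sow 2.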

Additional observations from a re-analysis of the deposited data

How the results depend on the processing

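The count of members at an unadjusted p of at most 0.05 was 0 (3.86% of all probe sets) and became 5 with array weights (all lower in Chinese Taihu sows: both CXCL12, CXCL14, IL27RA and IL2RG; 6.79% of all), 3 with no filter on low values (CXCL13 and IL2RA lower, IL4 higher, all at background; 4.02% of all), 1 with the methods' t-test (IL17B; 4.41% of all) and 1 (CCR1, higher; 2.22% of all) without Chinese Taihu sow 1 and Large White sow 2 together, a setting added after seeing the data. Leaving out 1 sow gave 0 to 8. At an adjusted p below 0.05 the count was 0 under every alternative run. The median difference of -0.06 became -0.12 with array weights and 0.028 without those 2 sows together, and ran from -0.13 to 0.079 with 1 sow left out.

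Some differences changed sign, none of them with an adjusted p below 0.05, and the cause was not tested. Those 2 sows were removed because they stood apart, and where they hold the extremes of a gene, as for CCL2, the choice itself moves the value. Without both CCL2 had a log2 difference of 0.19, CCL21 0.078, CCR1 0.69, CXCL16 -0.45, CXCL2 -0.48, CXCR4 0.19, IL11RA -0.30 and IL4R 0.42. With array weights CXCL16 had -0.60. With 1 sow left out, CCL21 ran from -0.95 to 0.089, CCR1 from -1.31 to 0.35, CXCL16 from -0.80 to 0.98, CXCL2 from -0.26 to 0.99, CXCR4 from -1.22 to 0.17, CXCR6 from -0.22 to 1.22, IL11RA from -0.16 to 0.45 and IL4R from -0.46 to 0.20.

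The replicate block gave 1 member (CCL8, lower; 3.75% of all). The labels number the sows as biological replicates and name no pairing. Deviations of same-numbered sows correlated at -0.17, -0.14 and 0.27 over the tested probe sets, and those of Chinese Taihu sow 2 and Large White sow 1 at 0.51. The deviations were taken from the mean of each breed, so these correlations are tied to one another and cannot decide on a pairing. Quantile normalization, median scaling, the other offset and filter and the constant prior variance moved no count of members.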

Other observations

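The granulosa markers, 9 of them tested, summed to 2033, 17881 and 13381 in Chinese Taihu sows 1 to 3 and to 17964, 11736 and 14360 in Large White sows 1 to 3, with FSHR above 50 in Large White sow 1 alone. In Chinese Taihu sow 1 INHA, NR5A2, FST and HSD17B1 were the lowest of all sows, while INHBA (899) and CYP19A1 (119) were the highest. AMH, FOXL2 and INHBB were neither lowest nor highest in it. The low sum of Chinese Taihu sow 1 thus did not hold for the whole list. It came together with low CCL2 and CXCL12 signals in this sow, and their relation was not tested. Of the neutrophil list, LTF, the iron-binding lactoferrin that glandular epithelia also secrete, had 6205 in Chinese Taihu sow 1, 23.3 and 24.9 in Chinese Taihu sows 2 and 3, and 27.2, 38.3 and 559.9 in the Large White sows. The oviduct markers OVGP1 and TEKT1, the 2 tested of that list, summed to 12735 in Chinese Taihu sow 1, to 374 and 360.1 in the other Chinese Taihu sows and to 289 to 2576 in Large White sows.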
